A study of Mus musculus with 15 samples.

Results

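The S100 genes encode small calcium-binding proteins, and 9 of them were followed here across 15 RNA-seq samples of a mouse podocyte line that was stretched at a low or a high amplitude. The 9 members were S100a1, S100a4, S100a6, S100a7a, S100a10, S100a11, S100a13, S100a16 and S100b, taken by symbol from a gene count table of 55416 genes, and all 9 passed the filter on low counts in every comparison. S100a7a was chosen by its measured values, since it had the lowest p-value of all genes for a difference between the amplitudes, so its response to stretch is given as a description without a test. The other 8 members were chosen as relatives of S100a7a, with earlier results of these data known.

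Podocytes are the cells of the kidney filter that wrap its capillaries, and stretch of the culture membrane stands in for the load of high glomerular pressure. SVI cells are mouse podocytes with a conditional immortalising gene, and they were differentiated and then plated on flexible membranes. In experiment 1, 6 samples received low stretch, with a deflection of 5 to 6 mm at the membrane centre per the sample labels, beside 3 unstretched samples. In experiment 2, 3 samples received high stretch, with a deflection of 7 to 8 mm, beside 3 unstretched samples. Amplitude and experiment are the same split, so a difference between low and high stretch cannot be told apart from a difference between the experiments. All samples come from 1 line, the labels give neither the stretch duration nor any further agent or genotype, and they do not say whether the samples were separate cultures. The p-values therefore measure only the spread between these samples, which may be technical.

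S100 proteins carry a pair of EF-hand calcium-binding loops, mostly form dimers, and expose a hydrophobic face to partner proteins when calcium binds. S100a10 is the exception that no longer needs calcium, and it joins annexin A2 in a tetramer at the cell membrane. Inside cells the family acts on the cytoskeleton, on membrane trafficking and on calcium handling, and several members are also secreted and bind the receptor for advanced glycation end products, Ager. Most mouse S100 genes lie together on chromosome 3, and S100b lies apart on chromosome 10. In the RefSeq order on chromosome 3 (assembly GRCm38.p6), S100a1 and S100a13 come first, then S100a16, S100a4, S100a6 and S100a7a, while S100a11 and S100a10 lie beyond the epidermal differentiation genes (loricrin, small proline-rich and filaggrin families).

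The count columns summed to between 262.0 M and 396.7 M (megacounts) in experiment 1 and between 172.2 M and 297.6 M in experiment 2. Unstretched replicate 3 of experiment 2 stood apart from the other two. Across 18524 genes the median absolute difference in log2 CPM (reads counted on a gene, scaled to the library's total) was 0.53 between it and replicate 1 and 0.68 between it and replicate 2, against 0.24 between replicates 1 and 2. It had the lowest CPM of the 3 for 7 of the 9 S100 genes and the highest for the other two, S100a7a and S100b. Of 18 podocyte markers, synaptopodin (Synpo) averaged between 319.1 and 661.5 CPM in the 4 groups, whereas Ptpro, Tcf21 and Foxc2 stayed under 0.05 CPM in every group mean. Of 10 tubule markers 5 were under 0.05 CPM in every group mean, while Lrp2, Aqp1 and Cdh16 each had at least 39.7 CPM in every group mean. Keratinocyte markers, which matter because S100a7a and its neighbours are known from skin, summed to between 4.38 and 6.15 CPM over 9 genes, and Krt5, Krt14, Krt1 and Krt6a were at or near 0.

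Promoter sequences are printed for 4 members, which were picked by their expression results. A link between these sequences and the response to stretch was not tested. S100a4 was the member that passed the test under high stretch, S100a7a differed in direction between the experiments, and S100a6 and S100a11 were the most abundant pair. Each run is the 250 bases before the RefSeq start, 5′ to 3′ on the gene's strand, build GRCm38.p6. Capitals mark matches to 3 letter patterns searched on both strands: GGAATG, the core bound by the stretch-responsive TEAD factors, TGANTCA, the AP-1 site, and TATAAA, the TATA box.
S100a7a, chr3:90654052-90654301, plus strand: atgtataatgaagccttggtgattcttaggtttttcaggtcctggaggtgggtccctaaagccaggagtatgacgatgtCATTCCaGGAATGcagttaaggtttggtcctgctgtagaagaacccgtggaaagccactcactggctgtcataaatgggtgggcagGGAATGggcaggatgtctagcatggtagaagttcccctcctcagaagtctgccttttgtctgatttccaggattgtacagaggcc
S100a4, chr3:90603520-90603769, plus strand: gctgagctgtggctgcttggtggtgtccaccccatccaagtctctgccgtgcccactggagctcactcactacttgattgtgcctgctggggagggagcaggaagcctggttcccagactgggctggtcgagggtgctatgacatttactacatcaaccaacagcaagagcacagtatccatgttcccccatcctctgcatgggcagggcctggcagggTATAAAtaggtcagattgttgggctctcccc
S100a6, chr3:90612644-90612893, plus strand: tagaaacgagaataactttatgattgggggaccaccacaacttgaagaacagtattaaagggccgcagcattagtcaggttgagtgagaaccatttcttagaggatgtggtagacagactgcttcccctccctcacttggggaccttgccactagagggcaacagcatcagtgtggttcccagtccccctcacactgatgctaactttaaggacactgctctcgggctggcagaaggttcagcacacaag
S100a11, chr3:93520246-93520495, plus strand: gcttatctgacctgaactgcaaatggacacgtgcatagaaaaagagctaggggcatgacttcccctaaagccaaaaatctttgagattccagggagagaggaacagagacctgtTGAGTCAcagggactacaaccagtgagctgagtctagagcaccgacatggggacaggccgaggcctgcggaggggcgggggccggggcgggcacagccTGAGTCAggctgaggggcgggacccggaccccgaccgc
The S100a7a window held 3 GGAATG matches. Of these, 2 lay back to back on opposite strands, 1 base apart (171 to 166 and 164 to 159 bases before the start). The third lay 85 to 80 bases before the start. At least 1 such match was present in 12.6% of all 32851 windows of this length, and 3 or more in 0.0913%. The S100a4 window held 1 TATAAA, 31 to 26 bases before the start, a pattern found in 12.4% of windows. The S100a11 window held 2 TGANTCA matches, at 136 to 130 and 38 to 32 bases before the start, where 6.75% of windows had at least 1 and 0.338% had at least 2. S100a6 had none of the 3 patterns in this window. Of the other members, 1 of the 2 S100a16 windows held 1 TGANTCA, and S100a1, S100a13 and S100b held no match. S100a10 has no entry in the promoter table. The S100a1 and S100a13 starts lie 105 bases apart, head to head on opposite strands, so that 204 bases of their windows (300 bases each, 250 before and 50 after the start) are shared. A match is a string of letters and no evidence of binding, and the patterns were chosen with the data known.

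The levels of the 9 genes are compared here in TPM (a length-scaled level, summed over a gene's transcripts), which account for length. S100a6 (calcyclin, a partner of annexins and of the ubiquitin-ligase adaptor Cacybp) and S100a11 (calgizzarin, a partner of annexin A1 in membrane repair) were highest. In unstretched samples of experiment 1, S100a11 averaged 2532 ± 71.3 TPM (SD, n = 3) and S100a6 2502 ± 630.0 TPM, ranks 28 and 30 among 51725 genes, and their ranges overlapped. S100a10 followed with 291 ± 38.2 TPM, and these 3 genes made up between 96.9% and 97.4% of the members' summed TPM in the 4 groups. S100a16 came next with 77.3 ± 5.27 TPM, then S100a13 with 26.6 ± 1.67 TPM and S100a4 with 23.8 ± 8.45 TPM, which overlapped. S100a7a had 9.43 ± 3.13 TPM, S100a1 4.10 ± 1.67 TPM and S100b 0.0688 ± 0.0233 TPM. S100a10 was the third and S100a16 the fourth in all 4 groups. S100a4 reached the fifth place in both stretched groups, where it overlapped S100a13, and S100a7a and S100a1 overlapped in every group but unstretched experiment 1. S100a6 led in the other three groups and overlapped S100a11 in all but high stretch. There S100a6 averaged 5886 ± 379 TPM, rank 10, and S100a11 3377 ± 371 TPM. The members' summed TPM was 5466 ± 626 without stretch and 6522 ± 880 with low stretch in experiment 1, and 7481 ± 1365 without stretch and 10202 ± 315 with high stretch in experiment 2.

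**Figure D1:**
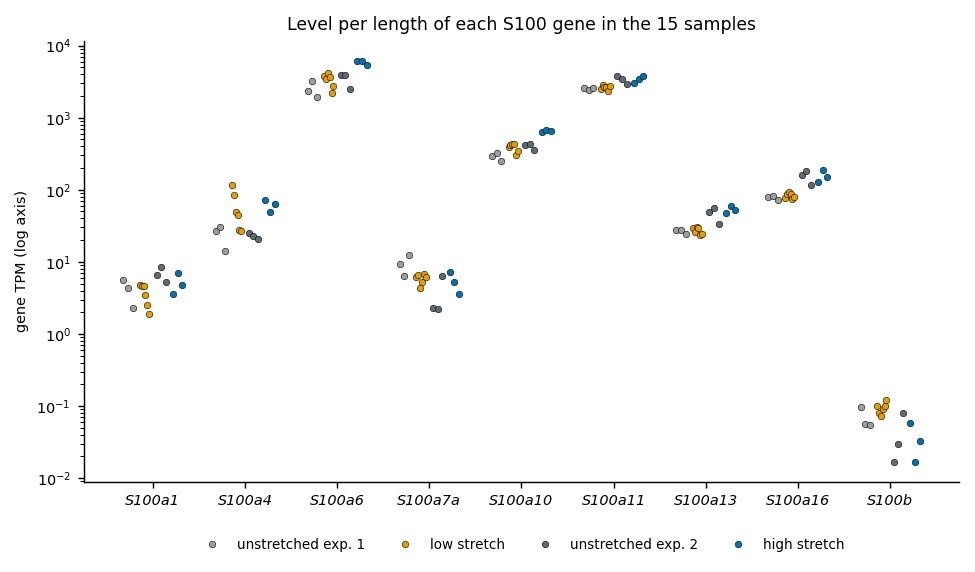
Gene TPM (log axis) of each S100 gene in the 15 samples, 1 point per sample, coloured by group. S100a6, S100a11 and S100a10 sit highest and S100b lowest, near 0.0688 TPM in unstretched samples of experiment 1.

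With stretch, S100a4, S100a6 and S100a10 were higher in both experiments, and only S100a4 under high stretch passed the test (edgeR's quasi-likelihood test, Benjamini-Hochberg adjustment over all genes, adjusted p under 0.05). S100a7a was lower with low stretch and higher with high stretch. S100a1, S100a11, S100a13, S100a16 and S100b had log2 fold changes between -0.33 and 0.32 and passed in neither comparison. Without S100a7a, 0 of 8 members passed under low stretch, where 5.45% of 21672 genes did, and 1 of 8 under high stretch, where 3.47% of 18524 genes did. The median log2 fold change of these 8 was 0.27 under low stretch and 0.21 under high stretch, against 0.01 and -0.02 over all genes tested. In these bulk samples, a change in RNA per cell cannot be told apart from a change in which cells contributed.

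Cell type markers moved in the same comparisons. The 10 tubule markers summed to 1293.1 to 1916 CPM without and 643.6 to 1058.6 CPM with low stretch, and to 1681.1 to 2220.2 CPM without and 586.1 to 644.2 CPM with high stretch, so the groups did not overlap in either experiment. Of the 5 tested in each comparison none rose and 2 fell. Under low stretch these were Lrp2, an endocytic receptor (log2 fold change -0.65, adjusted p 0.0227 in edgeR, and above 0.05 without unstretched replicate 1, 2 or 3 or low-stretch replicate 4, at 0.0504 to 0.125), and Cdh16, a kidney cadherin (-0.93, 0.0343, and above 0.05 without unstretched replicate 1 or 3 or low-stretch replicate 2, 3 or 4, at 0.0532 to 0.191). Under high stretch they were Cdh16 (-2.09, adjusted p 0.00592, and 0.0619 without high-stretch replicate 3) and the water channel Aqp1, which went from 649.3 to 51.6 CPM (-3.62, 0.0135, and above 0.05 without high-stretch replicate 1 or 3 or unstretched replicate 1, at 0.0543 to 0.0843). The sums came almost all from Lrp2, Aqp1 and Cdh16. Slc12a1 and Cubn went the other way under low stretch, with 0.69 (adjusted p 0.0852 in edgeR) and 0.27 (0.193). With runs of neighbouring sample codes as a block, Slc12a1 rose under low stretch (0.00706) while Lrp2, Aqp1 and Cdh16 fell. Under high stretch that block gave Aqp1 and Cdh16, both lower. It called 28.2% and 8.35% of all genes tested under low and high stretch. Of the podocyte markers, without the block, 2 of 15 rose (Col4a3 and Nes) and 1 fell (Plce1) under low stretch. Under high stretch 2 of 14 rose (Col4a3 and Nes) and 2 fell (Wt1 and Plce1). Over all genes tested, 5.45% and 3.47% passed without the block. With 1 sample left out, Nes and Plce1 passed under low stretch in 9 of 9 fits and Col4a3 in 2. Under high stretch Col4a3 passed in 4 of 6 such fits, Nes in 3, and Wt1 and Plce1 in 2 each. The part of these markers in the S100 values was not tested.

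**Figure D2:**
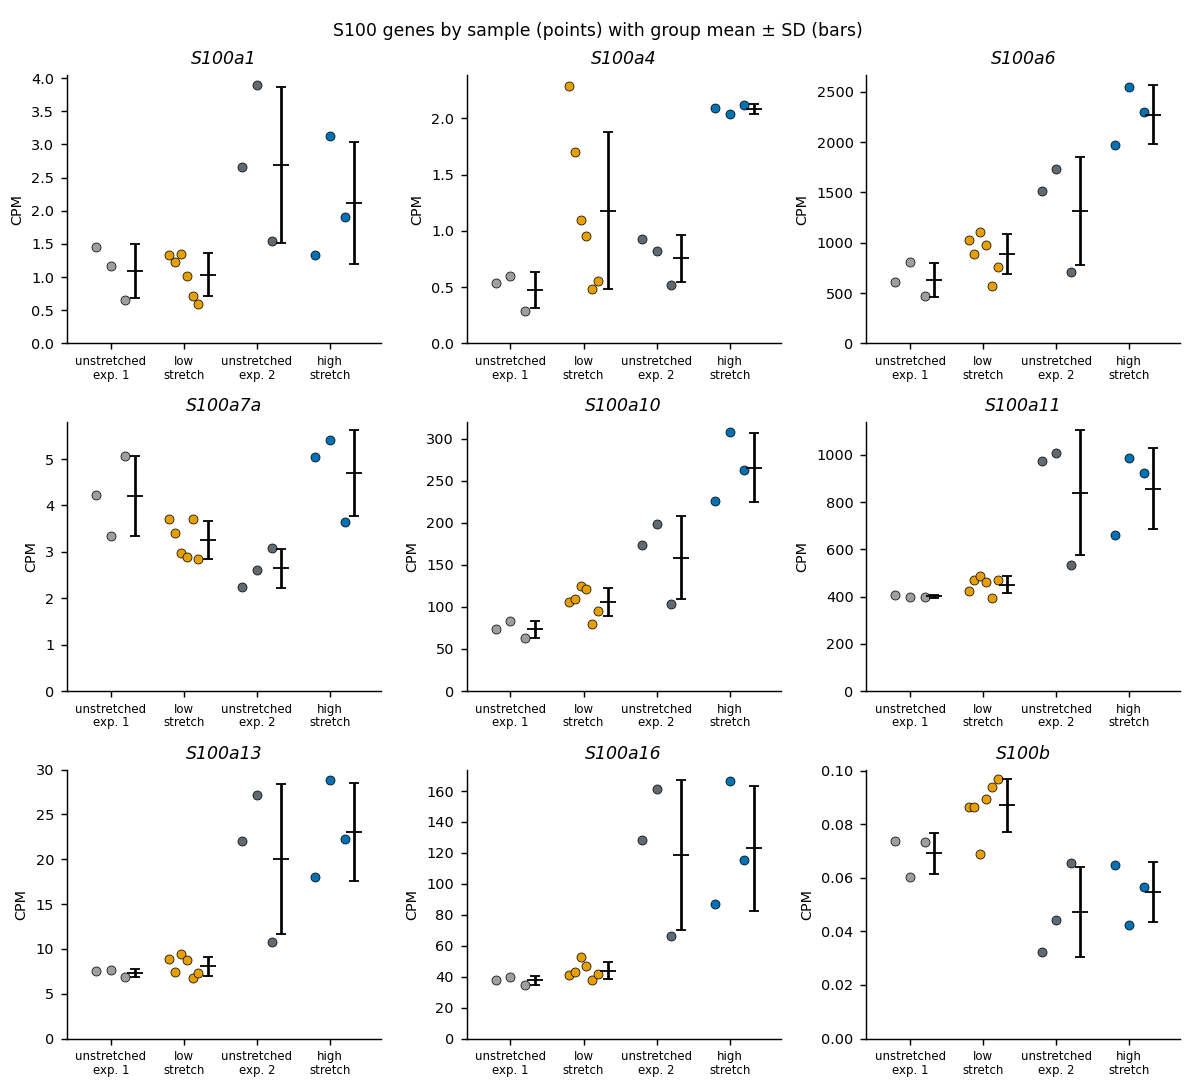
CPM of the 9 S100 genes (linear axes from 0), 1 point per sample in replicate order, with the group mean ± SD beside them. The 3 high-stretch samples of S100a4 sit between 2.04 and 2.12 CPM, above the 3 unstretched samples at 0.52 to 0.93 CPM.

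S100a4 (ENSMUSG00000001020), also called metastasin or fibroblast-specific protein, binds the tail of non-muscle myosin heavy chain Myh9 and loosens its filaments. Under high stretch its 3 samples had 2.09, 2.04 and 2.12 CPM, from 288 to 525 counts, and the unstretched samples had 0.928, 0.822 and 0.520 CPM, from 111 to 144 counts. The groups did not overlap. The high-stretch samples lay close together by CPM but less so by TPM, with 72.3, 49.9 and 63.5 against 25.0, 23.1 and 20.5 unstretched. The log2 fold change was 1.49 ± 0.27 (SE) with an adjusted p of 0.0258 in edgeR. Over 7 other ways of fitting the comparison the adjusted p ran from 8.28e-06 (DESeq2) to 0.0801 (all 15 samples in one fit), and it stayed under 0.05 in 6 of them. The call was lost without high-stretch replicate 1 (log2 fold change 1.47, adjusted p 0.115), replicate 2 (1.54, 0.0672) or replicate 3 (1.51, 0.138) and without unstretched replicate 1 (1.65, 0.0914), and was kept without unstretched replicate 3 (1.30, 0.0101).

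Under low stretch S100a4 differed between pairs of samples with neighbouring sample codes (code runs, described below). Replicates 1 to 6 had 2.29, 1.70, 1.10, 0.954, 0.483 and 0.557 CPM, and the unstretched samples 0.537, 0.598 and 0.290 CPM. Replicates 1 and 2, of the same code run, were highest. Replicates 5 and 6, also of the same run, fell inside the unstretched range but above the 0.290 CPM of their own run's unstretched sample. The log2 fold change was 1.31 ± 0.50 (SE), close in size to that under high stretch, with an adjusted p of 0.145 in edgeR. It passed with DESeq2 (adjusted p 0.0332), with the code run as a block (log2 fold change 1.16, adjusted p 0.00314) and with replicate number as a block (1.84, 0.0296). The replicate block left out low-stretch replicates 4 to 6, among them replicates 5 and 6, which lay inside the unstretched range. S100a4 is also a fibroblast marker, and the 9 mesangial and fibroblast markers summed to 1269.9 to 2009.7 CPM without stretch and 1518 to 3949.9 CPM with low stretch, and to 2561 to 7235 CPM without and 6546 to 10500.2 CPM with stretch in experiment 2, almost all of it from smooth muscle actin (Acta2). Acta2 had log2 fold changes of 0.86 (adjusted p 0.136 in edgeR) and 0.98 (0.269), and the collagen gene Col1a1 0.74 (0.279) and 0.95 (0.0886), from 0.427 to 0.718 and from 0.485 to 0.932 CPM. None of the 6 tested of this list passed upward in either comparison. Acta2 passed without low-stretch replicate 5 (adjusted p 0.0468) and, in experiment 2, without unstretched replicate 2 (0.0443), and Col1a1 without unstretched replicate 3 of experiment 2 (0.0382). With runs of neighbouring sample codes as a block in edgeR, Acta2 (adjusted p 0.000621 and 0.00887 for low and high stretch) and Col1a1 (0.0135 and 0.0409) rose in both experiments. In the same fits Pdgfrb fell under low stretch (8.75e-05) and Dcn under high stretch (0.0102). Dcn had 0.313 CPM without and 0.0809 CPM with high stretch (-1.93, adjusted p 0.2 in edgeR without the block). It passed downward without unstretched replicate 3 of experiment 2 (-2.37, 0.0096). Pdgfrb fell under low stretch (-0.56, adjusted p 0.0199 in edgeR), a call lost without unstretched replicate 1 (0.0734) or 3 (0.12), and Pdgfra, Lum and Itga8 were too low to test. The part of these markers in the S100a4 result was not tested.

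S100a6 (ENSMUSG00000001025) took the most counts of any member. High-stretch samples had 1967, 2551 and 2299 CPM, and unstretched samples of the same experiment 1511, 1728 and 712 CPM. The groups did not overlap, and unstretched replicate 3 lay far below the other two. Its log2 fold change was 0.81 ± 0.31 (SE) with an adjusted p of 0.270 in edgeR, and 0.54 (adjusted p 0.0826) without that sample. Under low stretch the samples had 1025, 884, 1108, 981, 571 and 755 CPM against 607, 814 and 475 CPM unstretched. The low-stretch replicates 5 and 6 lay inside the unstretched range but above the 475 CPM of the unstretched sample of their code run. The log2 fold change was 0.48 ± 0.22 (SE) with an adjusted p of 0.222 in edgeR, 0.30 without unstretched replicate 3 and 0.72 without unstretched replicate 2.

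S100a10 (ENSMUSG00000041959), the annexin A2 partner that helps bring ion channels to the cell surface and binds plasminogen there, moved with a smaller spread. Low-stretch samples had 105.5, 109.7, 125.1, 120.9, 80.0 and 94.8 CPM, and unstretched samples 74.2, 83.4 and 62.9 CPM. Only low-stretch replicate 5 fell below the highest unstretched sample. The log2 fold change was 0.52 ± 0.15 (SE) with an adjusted p of 0.0689 in edgeR, 0.0226 without low-stretch replicate 5 (log2 fold change 0.59) and 0.0173 in DESeq2, within a range of 0.000295 to 0.302 over all alternatives. High-stretch samples had 226.5, 307.7 and 263.3 CPM against 174.2, 198.2 and 103.6 CPM, with no overlap. Its log2 fold change was 0.77 ± 0.25 (SE) with an adjusted p of 0.187, and 0.56 (adjusted p 0.0796) without unstretched replicate 3.

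S100a7a (ENSMUSG00000063767), a mouse relative of human psoriasin that is known from inflamed skin, went in opposite directions. In experiment 1 the unstretched samples had 4.22, 3.33 and 5.06 CPM and the low-stretch samples 3.71, 3.40, 2.98, 2.88, 3.7 and 2.84 CPM. The ranges overlapped, with 3 low-stretch samples below every unstretched sample. In experiment 2 the unstretched samples had 2.25, 2.60 and 3.09 CPM and the high-stretch samples 5.05, 5.40 and 3.65 CPM, with no overlap. Its log2 fold change was -0.37 ± 0.15 (SE) under low stretch and 0.84 ± 0.26 under high stretch, a difference of 1.20 ± 0.27. The low-stretch value was -0.23 without unstretched replicate 3 of experiment 1 and -0.64 on gene TPM. Its high-stretch mean of 4.70 ± 0.931 CPM was close to the mean of 4.2 ± 0.865 CPM in the unstretched samples of experiment 1. By TPM the unstretched replicate 3 of experiment 2 had 6.35, inside the high-stretch range of 3.63 to 7.24. In the ranking that chose it, S100a7a was followed by Sdcbp2 (difference 1.97 ± 0.46) and Ptgds (-3.34 ± 0.79).

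No gene passed for a difference between the stretch effects (0 of 22015, 0%, in edgeR and 0 in DESeq2, with 547 at an unadjusted p under 0.05 in edgeR). For the 8 members other than S100a7a the difference, high minus low, ran from -0.27 for S100a1 to 0.30 for S100a6. It was 0.15 ± 0.62 (SE) for S100a4, 0.22 ± 0.29 for S100a10 and 0.30 ± 0.39 for S100a6. These standard errors leave room for a difference of about the size of the stretch effects themselves.

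**Figure D3:**
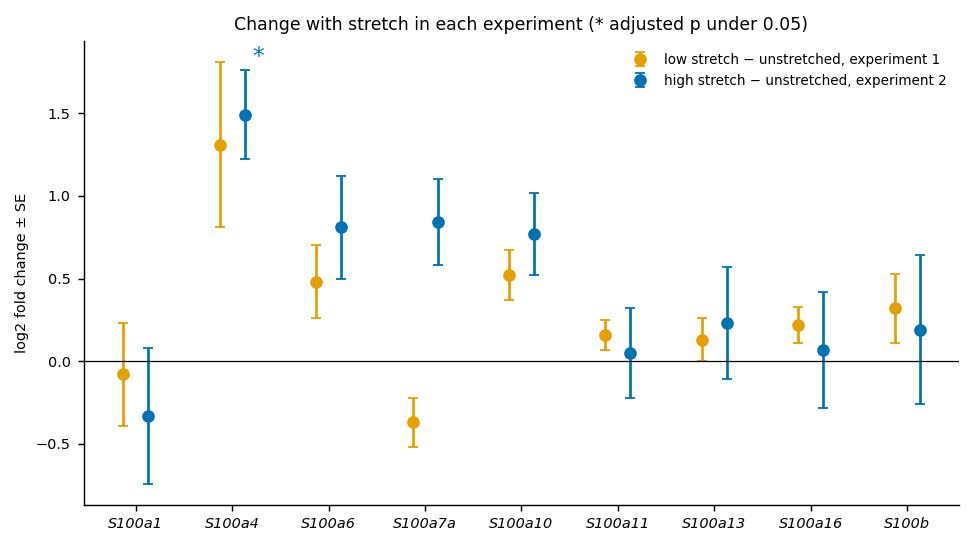
Log2 fold change ± SE of each S100 gene in the low-stretch and the high-stretch comparison (edgeR). S100a4 is near 1.31 and 1.49, S100a7a lies at -0.37 and 0.84, and the star marks S100a4 under high stretch, the only tested member with an adjusted p under 0.05.

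S100a11 (ENSMUSG00000027907) did not pass in either experiment, although its level is close to that of S100a6. Its unstretched samples in experiment 1 had 406.8, 396.5 and 399.6 CPM and its low-stretch samples had a lowest value of 394.0, a median of 465.8 and a highest value of 486.3 CPM. It had a log2 fold change of 0.16 ± 0.09 (SE, adjusted p 0.278 in edgeR). In experiment 2 the 3 high-stretch samples had 661, 986 and 922 CPM and the unstretched samples 977, 1007 and 535 CPM, a log2 fold change of 0.05 ± 0.27.

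S100a13, S100a16 and S100a1 did not pass either. S100a13 (ENSMUSG00000042312) takes part in the release of fibroblast growth factor 1 from cells, and had 7.33 ± 0.434 CPM without and 8.06 ± 1.07 CPM with low stretch (log2 fold change 0.13 ± 0.13). In experiment 2 it had 20.0 ± 8.41 CPM without and 23.1 ± 5.48 CPM with high stretch (0.23 ± 0.34). S100a16 (ENSMUSG00000074457) had 37.5 ± 2.65 and 43.9 ± 5.32 CPM in experiment 1 (0.22 ± 0.11) and 118.7 ± 48.5 and 123.0 ± 40.3 CPM in experiment 2 (0.07 ± 0.35). S100a1 (ENSMUSG00000044080), best known as a regulator of calcium cycling in heart muscle, had 1.09 ± 0.410 and 1.04 ± 0.322 CPM in experiment 1 (-0.08 ± 0.31) and 2.7 ± 1.17 and 2.12 ± 0.923 CPM in experiment 2 (-0.33 ± 0.41). Their adjusted p-values lay between 0.256 and 0.973 in edgeR. In experiment 2 unstretched replicate 3 had the lowest unstretched value of S100a11, S100a13, S100a16 and S100a1, and without it the log2 fold changes under high stretch were -0.16, -0.04, -0.19 and -0.58.

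S100b (ENSMUSG00000033208), the glial and melanocytic member, was at the limit of detection with 5 to 38 counts per sample. It had 0.0692 ± 0.0076 and 0.0870 ± 0.00979 CPM in experiment 1 and 0.0474 ± 0.0168 and 0.0546 ± 0.0112 CPM in experiment 2. Its log2 fold changes of 0.32 ± 0.21 and 0.19 ± 0.45 had adjusted p-values of 0.367 and 0.934 in edgeR, so no difference was detectable at this depth. Of the 8 further S100 genes in the table, S100a3 alone reached a mean of 1 CPM, with 0.669 and 0.959 CPM in experiment 1 and 1.44 and 2.02 CPM in experiment 2, and it passed in neither stretch comparison (adjusted p 0.404 and 0.695). The other 7 stayed under 1 CPM in each group mean.

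The letter-number codes in the sample descriptions fall into runs of neighbouring codes, and each run holds 1 unstretched sample. Experiment 1 has 3 runs with 2 low-stretch samples each, and experiment 2 has 3 runs with 1 high-stretch sample each. In experiment 1, samples of the same run deviated together from their group means (correlation across genes from 0.328 to 0.570 over 6 pairs), so each stretched sample was also set against the unstretched sample of its own run. In experiment 2, where the runs pair the same samples as the replicate numbers, the correlation ran from -0.163 to 0.45 over 3 pairs, so the samples there are not shown to be paired and the values by run are a description. S100a4 was higher than its run's unstretched sample in 6 of 6 low-stretch samples, by 1.59 to 4.26 times, and in 3 of 3 high-stretch samples, by 2.26 to 4.07 times. S100a6 was higher by 1.20 to 1.69 times in 6 of 6 and by 1.30 to 3.23 times in 3 of 3. S100a10 was higher by 1.27 to 1.51 times in 6 of 6 and by 1.30 to 2.54 times in 3 of 3. S100a7a was lower in 6 of 6 low-stretch samples, at 0.56 to 0.90 times, and higher in 3 of 3 high-stretch samples, at 1.18 to 2.24 times. Among all genes tested, 20.9% were higher in every low-stretch sample and 20.5% lower, and 18.2% were higher in every high-stretch sample and 19.2% lower. S100a16 and S100b were also higher in 6 of 6 low-stretch samples, by 1.08 to 1.32 and 1.14 to 1.48 times, and in 2 and 1 of the 3 high-stretch samples.

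**Figure D4:**
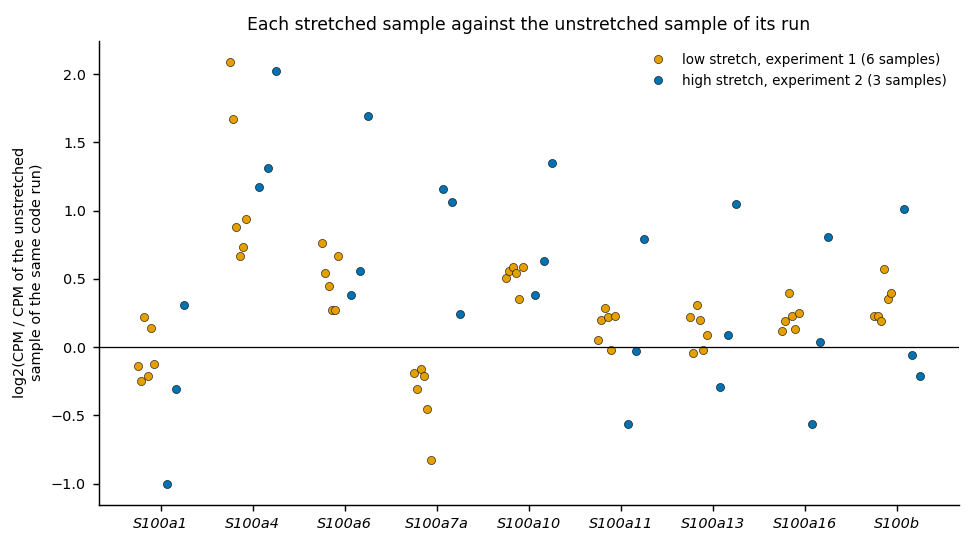
Log2 ratio of each stretched sample's CPM to the CPM of the unstretched sample in its code run, 1 point per stretched sample. S100a4, S100a6 and S100a10 lie above 0 in all 9 stretched samples, and S100a7a lies below 0 in the 6 low-stretch samples and above 0 in the 3 high-stretch samples.

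With the code run as a block in edgeR, 4 of the 8 members passed under low stretch. The adjusted p was 0.00314 for S100a4, 0.00605 for S100a6, 0.000295 for S100a10 and 0.0251 for S100a16, with log2 fold changes of 1.16, 0.49, 0.52 and 0.22. This block raised the number of genes called under low stretch from 1181 to 6106, or 28.2% of the genes tested. Under high stretch the block gave 3 of 8 members, S100a4 (adjusted p 0.000131), S100a6 (0.0248) and S100a10 (0.0246), where 8.35% of the genes tested were called (1546). Without the block, groups did not overlap for 3 of these 8 members under high stretch (S100a4, S100a6 and S100a10, all higher), where 20.6% of genes did not overlap, and for 0 of 8 under low stretch, where 15.3% did not.

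The unstretched samples of the 2 experiments differed in more genes than stretched and unstretched samples did. Of the 8 members other than S100a7a, 6 were higher in the unstretched samples of experiment 2 and passed: S100a16 (log2 fold change 1.65, adjusted p 0.00537), S100a13 (1.43, 0.00665), S100a1 (1.28, 0.0251), S100a10 (1.09, 0.00783), S100a11 (1.05, 0.00859) and S100a6 (1.04, 0.0289). S100a4 (0.65, 0.147) and S100b (-0.51, 0.287) did not pass, and S100a7a, given as a description, had -0.68 ± 0.24 (SE). In this comparison 62.5% of 20707 genes passed in edgeR and 72.9% did not overlap, among these 8 members 5, all upward, so the members' count stands near that of genes at large. The call of S100a1 was lost without unstretched replicate 2 (log2 fold change 1.33, adjusted p 0.0617) or 3 (1.01, 0.0786) of experiment 1 and replicate 1 (1.31, 0.0569) or 2 (0.94, 0.0663) of experiment 2. That of S100a6 was lost without replicate 1 (1.01, 0.0849) or 3 (0.87, 0.103) of experiment 1 and replicate 1 (0.95, 0.0831) or 2 (0.81, 0.0622) of experiment 2. On gene TPM, tested with limma, the differences were smaller: 0.98 for S100a16, 0.77 for S100a13, 0.77 for S100a1, 0.47 for S100a10, 0.41 for S100a11 and 0.46 for S100a6, where S100a1 (adjusted p 0.120) and S100a6 (0.171) no longer passed.

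Counts and TPM gave different levels for S100a4. For each gene, TPM times exon length divided by CPM should be near a common value, and it was between 1384 and 2944 (median over samples) for the other 8 members but 22878 for S100a4, 9.81 times the median of the others. Among 12483 genes with a mean of at least 1 TPM, 1.32% had a ratio at or above that of S100a4. In the GENCODE M21 annotation the predicted gene Gm42674 overlaps 302 of the 584 exon bases of S100a4 (51.7%) on the same strand, and it had 0 to 13 counts per sample. No other member had an exon overlap with another gene on either strand. Whether the overlap lowered the S100a4 counts was not tested. By TPM, S100a4 had 23.8 ± 8.45 and 58.4 ± 35.5 in experiment 1 and 22.9 ± 2.25 and 61.9 ± 11.3 in experiment 2, a log2 fold change of 1.15 (adjusted p 0.16, limma) under low and 1.42 (0.0185) under high stretch.

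The transcript make-up of the members gave no call where it could be tested. Of the members' transcripts, 6 could be tested under low stretch (adjusted p 0.587 to 0.762 in limma) and 4 under high stretch (0.932 to 0.991), and none passed. Among all transcripts tested, 0.0144% passed under low stretch (4 of 27720, with 2777 at an unadjusted p under 0.05) and 0% under high stretch (0 of 23408, with 1881). Of S100a6, the coding transcript ENSMUST00000001051 held 88.6% ± 3.24 (SD, n = 3) of the gene's TPM without stretch and 85.1% ± 5.80 (n = 6) with low stretch, and 80.2% ± 3.49 and 80.8% ± 12.1 in experiment 2. A shorter coding transcript, ENSMUST00000198128, held 7.17% ± 3.91 and 11.7% ± 6.05, then 15.1% ± 3.21 and 16.3% ± 10.8. Of S100a4, ENSMUST00000001046 held 89.1% ± 7.31 and 93.9% ± 2.34 in experiment 1 and 89.6% ± 3.98 and 97.4% ± 1.01 in experiment 2, the rest being ENSMUST00000142476. The S100a7a TPM was split between the coding ENSMUST00000079286, with 70.1% ± 10.1 without and 79.8% ± 8.19 with low stretch, and the short noncoding ENSMUST00000212471. S100a10, S100a11, S100a13 and S100b rested on 1 transcript for at least 99.1% of their TPM in experiment 1.

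Partners and targets of S100 proteins, a list of 37 genes, mostly did not pass. Under low stretch 1 of 31 tested rose and 2 fell, and under high stretch 0 of 29 rose and 1 fell, with medians of 0.13 and 0.22 against 0.01 and -0.02 over all genes. With the code run as a block 10 of 31 rose (Anxa1, Anxa6, Plat, Tpm1, Cacybp, Sugt1, Capzb, Iqgap1, Trp53 and Actb) and 2 fell under low stretch, and 1 of 29 rose (Tpm1, adjusted p 0.0135) and 2 fell (Fgf1 and Gfap) under high stretch. Over all genes tested, 5.45% under low and 3.47% under high stretch passed without the block, and 28.2% and 8.35% with it. Fgf1, the growth factor that S100a13 helps to export, fell in both experiments: from 4.59 ± 1.55 to 1.84 ± 0.429 CPM (log2 fold change -1.32, adjusted p 0.0101 in edgeR) and from 4.12 ± 0.639 to 1.03 ± 0.106 CPM (-1.98, 0.00772). Its call was lost without unstretched replicate 3 of experiment 1 (-1.05, 0.0631) and without high-stretch replicate 1 (-1.94, 0.0556) or 3 (-1.92, 0.0750). The actin-filament protein tropomyosin Tpm1, bound by S100a4, rose under low stretch (0.73, adjusted p 0.00628) and had 0.91 (0.0523) under high stretch, with 0.0287 and 0.0141 without unstretched replicate 2 or 3. Anxa11, a partner of S100a6, fell under low stretch (-0.45, 0.0226), a call lost without unstretched replicate 1 (-0.47, 0.0723) or 3 (-0.37, 0.141). Annexin A2, the S100a10 partner, had 0.13 (adjusted p 0.487) and 0.36 (0.615), and Myh9, the S100a4 partner, had -0.03 (0.888) and 0.18 (0.799).

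Among 11 receptors of secreted S100 proteins, 0 of 9 tested rose and 2 fell under low stretch, and 1 of 10 rose and 1 fell under high stretch. With the code run as a block the counts were 1 up (Fgfr1, adjusted p 1.36e-05) and 3 down (Alcam, Ager and Sort1) under low stretch, and 2 up (Fgfr1 and Cd68) and 1 down (Alcam) under high stretch. The shares of all genes tested were 5.45% under low and 3.47% under high stretch without the block, and 28.2% and 8.35% with it. Alcam, an adhesion molecule bound by S100b, fell from 22.9 ± 8.16 to 8.23 ± 2.25 CPM under low stretch (log2 fold change -1.48, adjusted p 0.00879 in edgeR) and from 7.23 ± 2.74 to 2.17 ± 0.351 CPM under high stretch (-1.72, 0.0362). Without unstretched replicate 3 of experiment 1 it had an adjusted p of 0.0512 (-1.16), and under high stretch the call was lost without unstretched replicate 1 (-1.64, 0.146) or any 1 high-stretch sample (0.120 to 0.175). Ager was scarce, at 0.872 ± 0.146 CPM without and 0.510 ± 0.114 CPM with low stretch (-0.78, 0.0475), and 8 of the 9 fits that left out 1 sample put it above the threshold (0.0578 to 0.20), the one without low-stretch replicate 5 being the exception. Under high stretch Ager had -0.95 (0.119). Fgfr1 rose under high stretch from 52.5 ± 9.09 to 115.4 ± 16.9 CPM (1.15, 0.0230), a call lost without unstretched replicate 1 (1.02, 0.128) or any 1 high-stretch sample (0.0598 to 0.132), and had 0.80 (0.146) under low stretch.

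Between S100a9 and S100a11 on chromosome 3 lies most of the epidermal differentiation complex, whose small proline-rich (Sprr) genes build the outer envelope of skin cells. Of 40 such genes in the table, 6 were tested in each comparison. Under high stretch 4 of them rose: Sprr2g (0.357 to 3.73 CPM, log2 fold change 3.43, adjusted p 0.0113 in edgeR), Sprr2a2 (2.96, 0.0289), Sprr2a1 (2.51, 0.0399) and Sprr1a (3.16, 0.0424). The calls were lost without high-stretch replicate 3 for all 4 (adjusted p 0.0628 to 0.18) and without high-stretch replicate 1, high-stretch replicate 2 or unstretched replicate 1 for 3 of them each (0.0628 to 0.170). Under low stretch all 6 had positive log2 fold changes and none passed, with 2.29 (adjusted p 0.168) for Sprr2g. With the code run as a block 4 of 6 rose under low stretch (Sprr2g, Sprr1a, Ivl and Sprr2a1, adjusted p 0.000218 to 0.0452). Under high stretch 5 of 6 did, Ivl being the fifth. Over all genes tested, 5.45% under low and 3.47% under high stretch passed without the block, and 28.2% and 8.35% with it. The filter on low counts could admit a gene through its stretched samples alone. Ivl had 0.00728 to 0.0296 CPM without and 0.0605 to 0.121 CPM with high stretch, and Lor (loricrin) 0.0109 to 0.0386 and 0.0688 to 0.0993 CPM. Of the called genes, Sprr2a1 had 0.0258 to 0.0593 and 0.129 to 0.335 CPM, and Sprr2a2 0.0258 to 0.0741 and 0.174 to 0.528 CPM. For genes this near the floor, a rise was thus partly set by the filter. The counts of risen genes in this list are therefore a description. The Sprr2 genes are a family of close copies, so the counting could have split their reads. Of the 9 keratinocyte markers, Krt14, Krt1, Krt6a and Dsc3 were at 0 in every high-stretch sample and Krt5 averaged 0.00942 CPM. Krt10 averaged 2.73 CPM with and 2.11 CPM without high stretch (log2 fold change 0.38, adjusted p 0.666), and Sfn 3.06 and 2.41 CPM (0.37, 0.609). Trp63 had -2.20 (adjusted p 0.00957) under low and -2.74 (0.0519) under high stretch, where it passed without unstretched replicate 2 (0.00781) or 3 (0.0391). The part of these markers in the Sprr values was not tested.

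**Figure D5:**
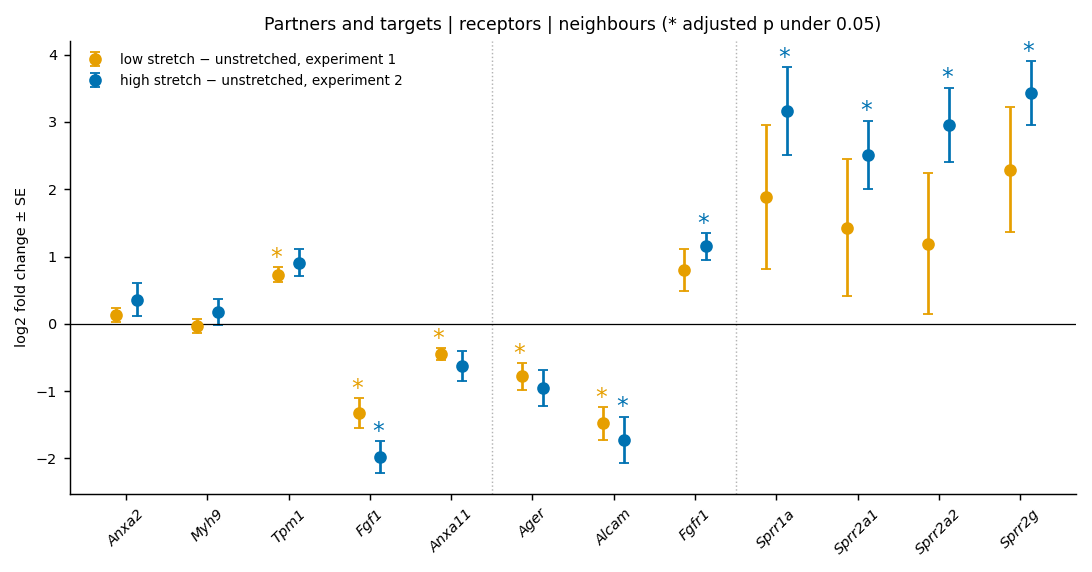
Log2 fold change ± SE of named S100 partners and targets, receptors and Sprr neighbours under low and high stretch (edgeR), with a star where the adjusted p was under 0.05. Fgf1 and Alcam lie below 0 in both comparisons, and the 4 Sprr genes lie between 2.51 and 3.43 under high stretch.

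The genes most like S100a7a were sought over all 15 samples, by the root mean square difference of log2 CPM after each gene was set against the unstretched mean of its experiment. Of 12937 genes the 5 nearest were Gm5577 (0.279), Stac3 (0.286), Cd68 (0.306), Flt3l (0.315) and Gm19391 (0.319). Cd68, a lysosomal protein of macrophages that is also made at low level by other cells, had 1.15 and 1.07 CPM in experiment 1 and 1.04 and 1.88 CPM in experiment 2. The 9 leukocyte markers, Cd68 included, summed to at most 2.28 CPM in any sample.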

How the data were processed

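Poly(A) RNA of 15 samples was sequenced as stranded paired-end libraries, per the labels' protocols. The authors deposited a table of raw gene counts, made with STAR 2.7.5c and featureCounts of Subread 2.0.0 per the submitters' processing notes, and a table of transcript TPM values made with Salmon 1.9.0. Those notes list the build mm39 and no annotation. The strand setting and whether a read pair counted once are not given in the sources used here. Symbols, exon lengths and transcript types came from GENCODE M21, which matched 52135 of 55416 genes and 137189 of 140789 transcripts, and at most 0.181% of the counts of any sample fell on unmatched genes. That annotation is of another build, so the coordinates given are only those of the RefSeq promoter windows, in GRCm38.p6.

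Groups came from the sample titles. The gene test was the one of edgeR (version 4.0.16, run in R 4.3.3: TMM, filterByExpr, quasi-likelihood F test, Benjamini-Hochberg adjustment over all genes tested, threshold 0.05), each stretched group against the unstretched samples of its own experiment, and the unstretched groups against each other. High minus low stretch effects came from a fit of the 4 groups together. CPM values use TMM-scaled library sizes. SE is the size of the log2 fold change over the square root of F. Transcript usage was tested with limma 3.58.1 on the log2 odds of each transcript within its gene (its TPM against the rest of the gene, 0.1 TPM added to each side), for genes with a mean of at least 1 TPM and mean fractions from 0.05 to 0.95. An exact 0 in TPM can be a failed estimate. The tests were tested on simulated data. Alternatives were DESeq2 1.42.0, RLE factors, all genes or only genes with a mean of 100 counts or more, blocks on replicate number or code run, all 15 samples in one fit, each sample left out, and, added after the data were seen, gene TPM with limma. Usage was refitted with 0.01 or 1 TPM added, with genes of 5 TPM or more, and unfiltered.

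The members, lists and motifs were chosen with earlier results of these data known. Named were all members, further S100 genes with a group mean of at least 1 CPM, genes of the partner, receptor and epidermal complex lists that passed in a stretch comparison, Anxa2 and Ager whatever their values, the 5 genes most like S100a7a, and member transcripts with a mean fraction from 0.05 to 0.95. Myh9, cell type markers and genes called only with the code run block were named outside this rule, after their values were seen.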

Additional observations from a re-analysis of the deposited data

Results flagged for a closer look

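S100a7a was the 1 result flagged for a difference between the groups, which followed from the rule that chose it by that difference. Its stretch effect differed between the experiments by 1.2 on the log2 scale, and every low-stretch sample lay below the mean of its unstretched samples while every high-stretch sample lay above that of its own. The difference was not tested here, because S100a7a was chosen by it, and these sample positions come from the same values. No gene passed for a difference between the stretch effects (0 of 22015 in edgeR). The 6 low-stretch values of each member were also checked for a sample far from the others, on CPM and on TPM (18 sets of values), and none was found.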

How the results depend on the processing

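The number of genes called under low stretch was 1181 and became 2837 with DESeq2, 490 with the replicate block, 6106 with the code run block and 640 with all 15 samples in one fit. Under high stretch it was 643 and became 1403 with DESeq2, 1050 with no filter, 414 with a mean count of at least 100, 1546 with either block, 1488 with all 15 samples and 326 on gene TPM with limma. The code run block gave 3 genes for the difference between effects, and gene TPM with limma gave 7499 genes, against 12941, between the unstretched groups. Of the 8 members other than S100a7a, the count under low stretch went from 0 to 2 with DESeq2, 1 with the replicate block and 4 with the code run block, and under high stretch from 1 to 3 with either block, 0 with all 15 samples and 2 on gene TPM. Transcripts called under low stretch went from 4 to 1 or 75 with pseudocounts of 0.01 or 1 TPM, 91 with no filter, 0 with the replicate block and 37 with the code run block, and under high stretch from 0 to 3 with a pseudocount of 1 TPM and 7 with no filter. With 1 sample left out, low-stretch genes ran from 220 (without unstretched replicate 3) to 1630 (without low-stretch replicate 5) and high-stretch genes from 14 (without high-stretch replicate 3) to 1421 (without unstretched replicate 3). Called transcripts ran from 1 to 8 and from 0 to 10, and called members from 0 to 1 in both comparisons. Signs changed for small effects: with the replicate block S100a1 under low stretch was 0.32 and the difference of S100a4 was -0.33, and on gene TPM S100a11 under high stretch was 0.00. With 1 sample left out the log2 fold change ran from -0.35 to 0.18 for S100a1 under low stretch, and under high stretch from -0.68 to 0.04 for S100a1, -0.16 to 0.21 for S100a11, -0.04 to 0.52 for S100a13, -0.19 to 0.36 for S100a16 and -0.02 to 0.36 for S100b. The difference between effects ran from -0.66 to 0.08 for S100a1, -0.04 to 0.45 for S100a4, -0.31 to 0.01 for S100a11, -0.16 to 0.36 for S100a13, -0.45 to 0.11 for S100a16 and -0.36 to 0.28 for S100b. High-stretch usage of S100a6 ran from -0.54 to 0.85 for ENSMUST00000001051 and -0.71 to 0.74 for ENSMUST00000198128. S100a4, S100a6 and S100a10 kept a positive log2 fold change in both stretch comparisons in every alternative run. The cause of these changes was not tested.

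Same-numbered samples shared little beyond the number: their deviations correlated from -0.44 to 0.365 in experiment 1 and from -0.163 to 0.45 in experiment 2, so the replicate block is an alternative only, and it dropped low-stretch replicates 4 to 6. S100b, with 5 to 38 counts per sample, is limited by depth.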
